A study of Mus musculus with 2 samples.

Results

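T and NK lymphocytes of the adult mouse testis were taken here as droplet barcodes that carry RNA of T and NK cell genes, and 117 such barcodes were found among 35330 in the whole series, 100 of 17968 in the Igf2bp1 KO library and 17 of 17362 in the wild type library. The series holds 2 droplet-based single-cell libraries of whole testis, 1 from wild type and 1 from Igf2bp1 KO animals, both aged 8 months, made from enzymatically digested tissue. Igf2bp1 encodes an RNA-binding protein of the IGF2BP family, and the series text calls the knockout conditional. The sources used here do not name the Cre line, the cells it acts in or the deleted part of the gene, and the text can be read as 2 mice in all or per genotype. With 1 library per genotype there is no spread between animals, so no test was made, and what differs between the genotypes cannot be told apart from what differs between the libraries.

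A barcode was a member when at most 20% of its UMIs (unique molecular identifiers, counted RNA molecules) came from mitochondrial genes, when Prm1, Prm2, Tnp1 and Tnp2 summed to under 183 UMIs, when 9 selecting genes (Cd3d, Cd3e, Cd3g, Trbc2, Trac, Nkg7, Cd8b1, Il7r and Gzma) summed to at least 4 UMIs, and when Cd79a and Cd79b summed to at most 1. These counts chose the members, so the levels of the selecting genes and the number of members are a description. At 3 selecting UMIs, just outside, lay 32 knockout and 26 wild type barcodes, of which 12 and 1 held 2 or more of the leukocyte genes described below. At 4, just inside, lay 23 and 8, of which 19 and 0 did. A further 164 knockout and 341 wild type barcodes met every other limit but were at or over the protamine limit.

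T cells recognise antigen through a receptor of paired alpha and beta or gamma and delta chains, which signals through the CD3 chains. CD8 T cells and NK cells kill target cells with granzymes and perforin and release chemokines, while CD4 T cells mainly help other immune cells, and NK cells lack the T cell receptor. In the testis, lymphocytes lie in the interstitium around the seminiferous tubules, outside the barrier formed by Sertoli cells, and few are found there in health.

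Before any result, 13 of the 17 wild type members and 5 of the 100 knockout members stood apart. They held at most 1 of 10 general leukocyte genes that the rule did not use (Ptprc, Cd52, Coro1a, Laptm5, Ptprcap, Cd48, Rac2, Hcst, Selplg and Ms4a4b). The 13 wild type barcodes had 15592 to 41909 UMIs, against a median of 2753 for the knockout members. Of the 57 selecting UMIs in these 13, 26 were Cd3d and 27 were Trbc2, and none were Nkg7 or Cd3g. The other 4 wild type and 95 knockout members held 2 or more leukocyte genes, and are called leukocyte-positive below. Among barcodes under 10000 UMIs with 0 or 1 selecting UMI and within the protamine limit, 0.103% held 2 or more leukocyte genes in the wild type library and 0.948% in the knockout library. Among knockout members of that depth the share was 97.9% (94 of 96; 95% exact Clopper-Pearson interval 92.7 to 99.7).

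**Figure D1:**
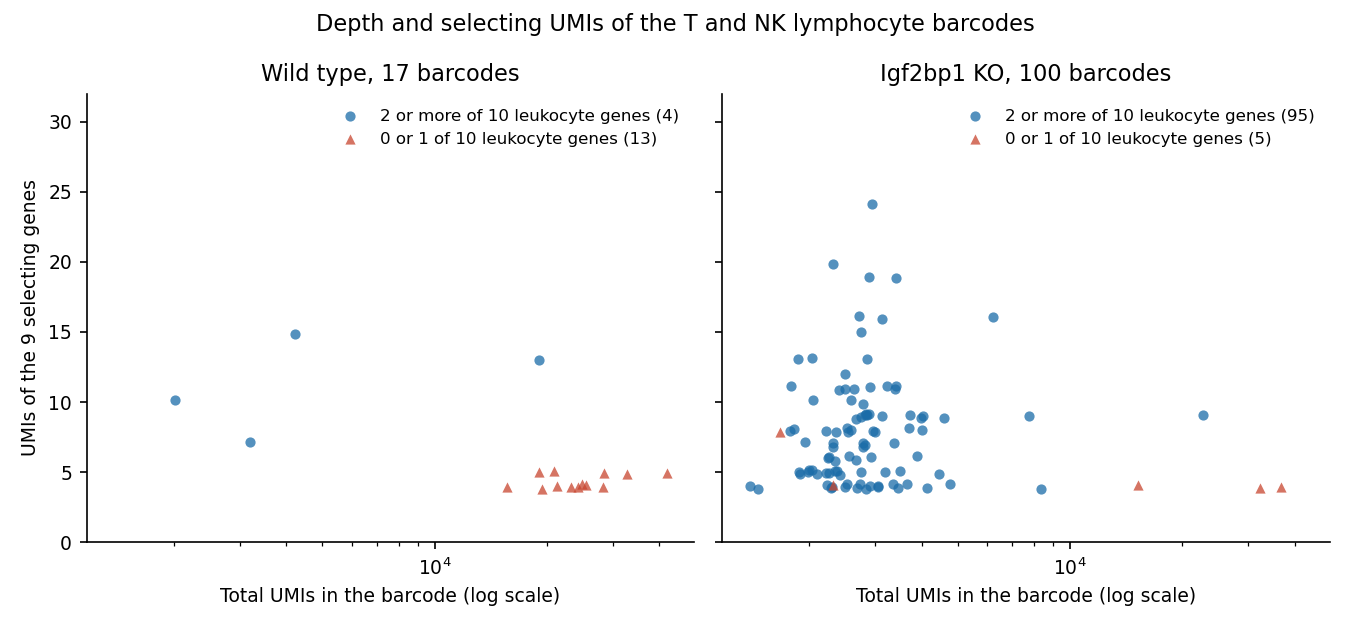
UMIs per barcode (log axis) against UMIs of the 9 selecting genes for the 17 wild type and 100 knockout members, with members that hold 2 or more of 10 leukocyte genes as circles and the others as triangles. The knockout circles lie mostly near 2753 UMIs, while 13 of the 17 wild type points are triangles at 15592 UMIs or more.

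Not all selecting genes are particular to lymphocytes in this tissue. Cd3d was counted widely in barcodes rich in protamine RNA, the RNA of spermatids, and in deep barcodes under the protamine limit. In barcodes at or over the protamine limit, Cd3d stood at 46.8 CPM (UMIs per 1000000 UMIs) in the wild type library and 46.0 in the knockout library, with a UMI in 59.8% and 34.0% of barcodes at median depths of 20322 and 8397 UMIs. Cd3e stood at 0.199 and 1.31 CPM in the same barcodes and Cd3g at 0 and 1.06. Trbc2, a constant segment of the beta chain, was also present there, at 10.3 and 10.7 CPM. Barcodes of 10000 UMIs or more under the protamine limit, members left out, held both genes too. Cd3d stood at 20.5 CPM in those of the wild type (32.2% of 1164 barcodes) and 26.1 in the knockout library (38.8% of 423). Trbc2 stood at 8.14 and 9.63 CPM. The 13 wild type members that were not leukocyte-positive had such depths, 15592 to 41909 UMIs. They held 4 to 28 UMIs of spermatocyte genes each. Of all Cd3d UMIs in the knockout library 3.12% lay in the 100 members, and of all Trbc2 UMIs 12.7%. The shares were 46.2% for Cd3e, 48.0% for Cd3g and 54.7% for Nkg7. For Trac the share was 36.3%, for Cd8b1 32.3%, for Gzma 15.6% and for Il7r 12.9%. Most UMIs of each selecting gene but Nkg7 thus lay outside the members in the knockout library.

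The 3 CD3 genes lie together on chromosome 9. The stretches before their starts are shown because the neighbouring genes Cd3d and Cd3g stood at such different levels in protamine-rich barcodes. The starts of Cd3g and Cd3d are 1355 bases apart on opposite strands, and that of Cd3e lies 27825 bases from Cd3d. Each sequence is the 250 bases before the annotated start in RefSeq on GRCm38.p6, read 5′ to 3′ on the gene's strand. Capitals mark matches to short motifs, each searched on both strands. They were GGAAGT, which factors of the ETS family bind. The second was TGTGGT, bound by RUNX factors. A further one was TGACG, the core of the cyclic AMP response element. The last was AGATAA, bound by GATA factors.
Cd3d, chr9:44981536-44981785, plus strand: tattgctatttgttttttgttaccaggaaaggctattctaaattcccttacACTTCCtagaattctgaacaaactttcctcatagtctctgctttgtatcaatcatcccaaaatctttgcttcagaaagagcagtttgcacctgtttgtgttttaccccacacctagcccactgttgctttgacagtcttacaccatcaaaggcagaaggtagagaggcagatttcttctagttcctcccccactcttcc
Cd3g, chr9:44980432-44980681, minus strand: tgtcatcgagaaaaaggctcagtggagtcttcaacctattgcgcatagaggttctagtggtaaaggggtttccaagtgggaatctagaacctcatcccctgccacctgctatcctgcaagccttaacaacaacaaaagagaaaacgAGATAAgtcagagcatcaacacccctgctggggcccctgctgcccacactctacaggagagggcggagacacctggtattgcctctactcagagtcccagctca
Cd3e, chr9:45009612-45009861, minus strand: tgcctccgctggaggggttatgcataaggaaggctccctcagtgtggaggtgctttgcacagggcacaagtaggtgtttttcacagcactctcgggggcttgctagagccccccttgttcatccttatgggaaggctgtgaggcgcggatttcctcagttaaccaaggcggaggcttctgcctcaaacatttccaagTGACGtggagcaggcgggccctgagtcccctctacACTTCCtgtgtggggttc
Cd3d held 1 ETS match, 199 to 194 bases before the start, and no match of the other motifs. Cd3e held an ETS match 18 to 13 bases and a match of the cyclic AMP element 53 to 49 bases before its start. The window of Cd3g held a GATA match, 104 to 99 bases before the start. Among 32851 mouse promoters of the same length, 19.7% held the ETS letters, 14.0% the RUNX letters, 17.8% those of the cyclic AMP element and 9.99% the GATA letters. A match is a description of letters and says nothing of a factor's binding.

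**Figure D2:**
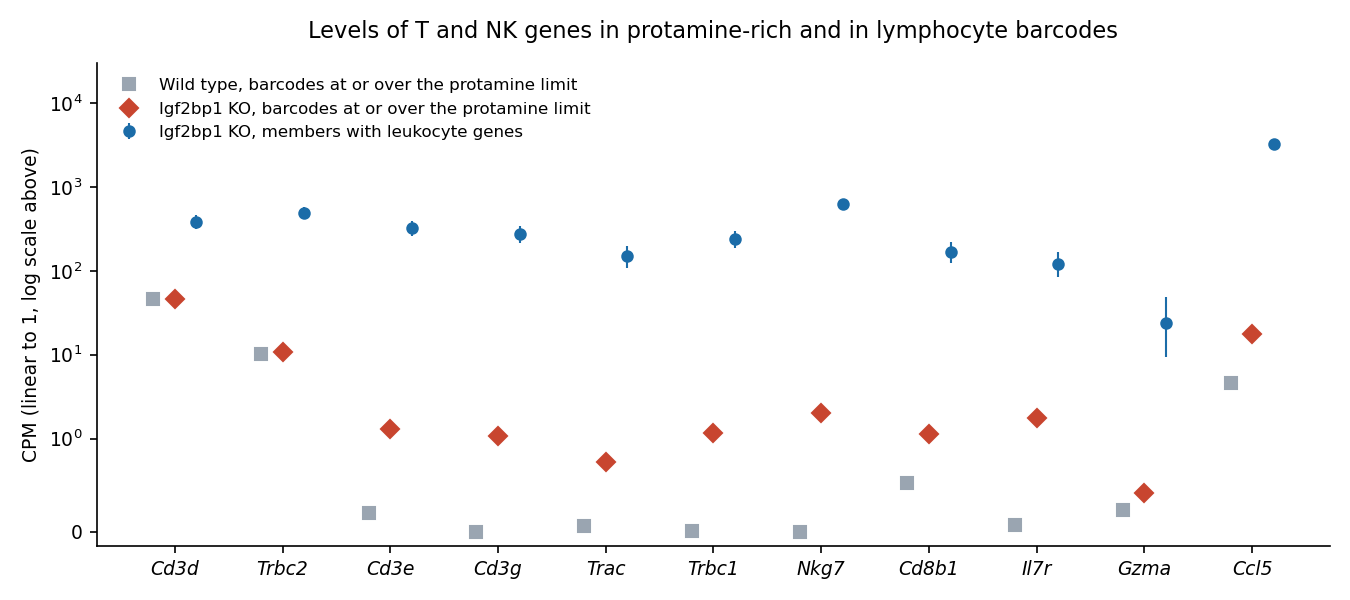
Level in CPM (axis linear to 1, logarithmic above) of the selecting genes, Trbc1 and Ccl5 in barcodes at or over the protamine limit of each library (squares and diamonds) and in the 95 leukocyte-positive knockout members (circles with 95% exact Poisson intervals, counting error only). Cd3d and Trbc2 lie at like levels in the protamine-rich barcodes of both libraries, while Nkg7 and Cd3g are at 0 CPM there in the wild type.

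Members made up 0.565% of the 17703 barcodes within the mitochondrial limit in the knockout library (95% exact interval 0.460 to 0.687) and 0.100% of 17002 in the wild type library (0.0583 to 0.160). The ratio was 5.65-fold, or 2.50 on the log2 scale (1.75 to 3.33, exact conditional binomial interval). Leukocyte-positive members made up 0.537% and 0.0235%, a log2 ratio of 4.51 (3.11 to 6.42). These intervals cover counting error only and say nothing of the spread between mice. The libraries also differed in depth, with a median of 2096 UMIs per barcode in the knockout and 1236 in the wild type. With every barcode thinned to 900 UMIs the log2 ratio was 3.75 (1.76 to 6.86), from 28 knockout and 2 wild type barcodes. Among barcodes of 2000 UMIs or more it was 1.55 (0.79 to 2.40), from 88 and 17. Without the protamine limit the log2 ratio was -0.50 (264 knockout and 358 wild type barcodes), which is the other direction. With that limit removed but 2 leukocyte genes required it was 1.76 (134 and 38 barcodes). Among protamine-rich barcodes of 10000 UMIs or more with 0 or 1 selecting UMI, 18.8% in the knockout and 4.17% in the wild type library held 2 leukocyte genes, so these genes mark leukocytes less sharply there. In the knockout library 217 barcodes met the like rule for B lymphocytes and 225 that for macrophages. The wild type counts were 0 and 41, where a count of 0 allows up to 0.0217% of barcodes (upper 95% exact limit). Whether the tissue digestions recovered interstitial cells equally was not tested.

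The 100 knockout members had 1384 to 36701 UMIs (median 2753) and 869 to 5492 genes. All held spermatid RNA: the protamine and transition protein genes summed to 32 to 168 UMIs (median 73). RNA not from the cell itself was estimated by scaling these genes to the 10% of barcodes with the fewest UMIs. It made up an estimated 42.9% of the members' UMIs, 51.9% in B barcodes and 48.4% in macrophage barcodes. The scale takes all RNA of those shallow barcodes, and all protamine RNA, as not from the cell, which was not tested. Knockout barcodes at or over the protamine limit stood at 221% on it, so it is not a measured share. The estimate was 52.3% in the 95 leukocyte-positive members. It was 11.5% in the 5 others, which held 88228 of the members' 384246 UMIs. The libraries shared 106 barcode sequences, and 1 knockout member's sequence also occurred in the wild type library. No member occurred in both. Doublets were not removed.

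The 6 markers given for the label are all selecting genes, so their presence in members was set by the rule and does not check the label. T cell genes outside the rule were counted in the knockout members: Trbc1, the other beta constant segment, had 71 UMIs in 30 of the 100 members, and Lat, Lck and Bcl11b, described below, lay in 42, 31 and 19. Gzma, a granzyme of NK and killer T cells, had 7 UMIs in 2 barcodes although it was a selecting gene. Ncr1, the receptor that defines NK cells, had 0 UMIs, which at this depth allows up to 9.60 CPM (upper 95% exact Poisson limit). As a description that the rule in large part fixes, of the 95 leukocyte-positive members 77 held UMIs both of a CD3 chain and of Trac, Trbc1 or Trbc2, 13 of a CD3 chain alone, 4 of a constant segment alone and 1 of neither. With no UMI of Ncr1 the NK part of the label was not borne out, and the barcodes are called members, by their rule.

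All 8 genes of the receptor complex list had a UMI in the knockout members. For 6 of them the interval lay above that of 714 other knockout barcodes of like depth, but not for Cd247 and Trat1. All of the 6 but Trbc1 are selecting genes. The barcodes of like depth are not members, so for the selecting genes the rule in large part fixed this. Trbc2 had 151 UMIs in 68 barcodes (393 CPM, 95% exact Poisson interval 333 to 461), and Trbc1, which the rule did not use, had 71 UMIs in 30 (185 CPM). Cd3d had 124 UMIs in 67 barcodes, Cd3e 98 in 59, Cd3g 82 in 52 and Trac, the alpha constant segment, 45 in 35. B barcodes had a median depth of 2417 UMIs. Their own rule allowed at most 1 selecting UMI, so the selecting genes cannot be set against them. Of the other 3 genes in the list, only Trbc1 had 20 UMIs over both groups, and it had 0 UMIs in the 217 B barcodes. Both beta constant segments were found in 18 members, Trbc1 alone in 12, Trbc2 alone in 50 and neither in 20. The segments are near-identical copies, so reads may have been split between them. Of 176 variable segments in the table, 8 had a UMI in members, 19 UMIs in all, and 10 of those were Trgv2.

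Signalling genes of the receptor, none of them used by the rule, were present with it. In the list of 20, all had a UMI and 17 had an interval above that of 714 other knockout barcodes of like depth. Lat, the adaptor on which the signal assembles, had 58 UMIs in 42 members (151 CPM), against 4 UMIs in 217 B barcodes. Lck, the kinase that starts the signal, had 46 in 31 members (120 CPM), against 2 UMIs in B barcodes and 0 in macrophages. Bcl11b, a transcription factor of T cell identity, had 20 UMIs in 19 members and 0 in both other types. The 3 others are Ubash3a and Cd6, with 3 UMIs each, and Prkcq, which had 112 CPM in members and 116 CPM in protamine-rich barcodes of the same library, a level that does not set them apart. Ptprcap, a partner of the phosphatase CD45, stood lower in members (177 CPM) than in B barcodes (415 CPM).

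Members with CD8 UMIs outnumbered those with Cd4. Cd8a, one chain of the CD8 coreceptor, had 35 UMIs in 25 members, and Cd8b1, the other chain and a selecting gene, 50 in 26. In all 39 members held either, 12 of them both. Cd4 had 6 UMIs in 5 members, none of which held Cd8a or Cd8b1, and 56 members held no UMI of the 3 genes. At these depths a missing UMI does not show that a gene is off, and the rule selected on Cd8b1 but not on Cd4. Zbtb7b, the factor that fixes CD4 fate, had 0 UMIs, and Runx3, which does so for CD8 fate, was higher in members than in B barcodes. Foxp3, the factor of regulatory T cells, had 2 UMIs, both in 1 barcode.

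**Figure D3:**
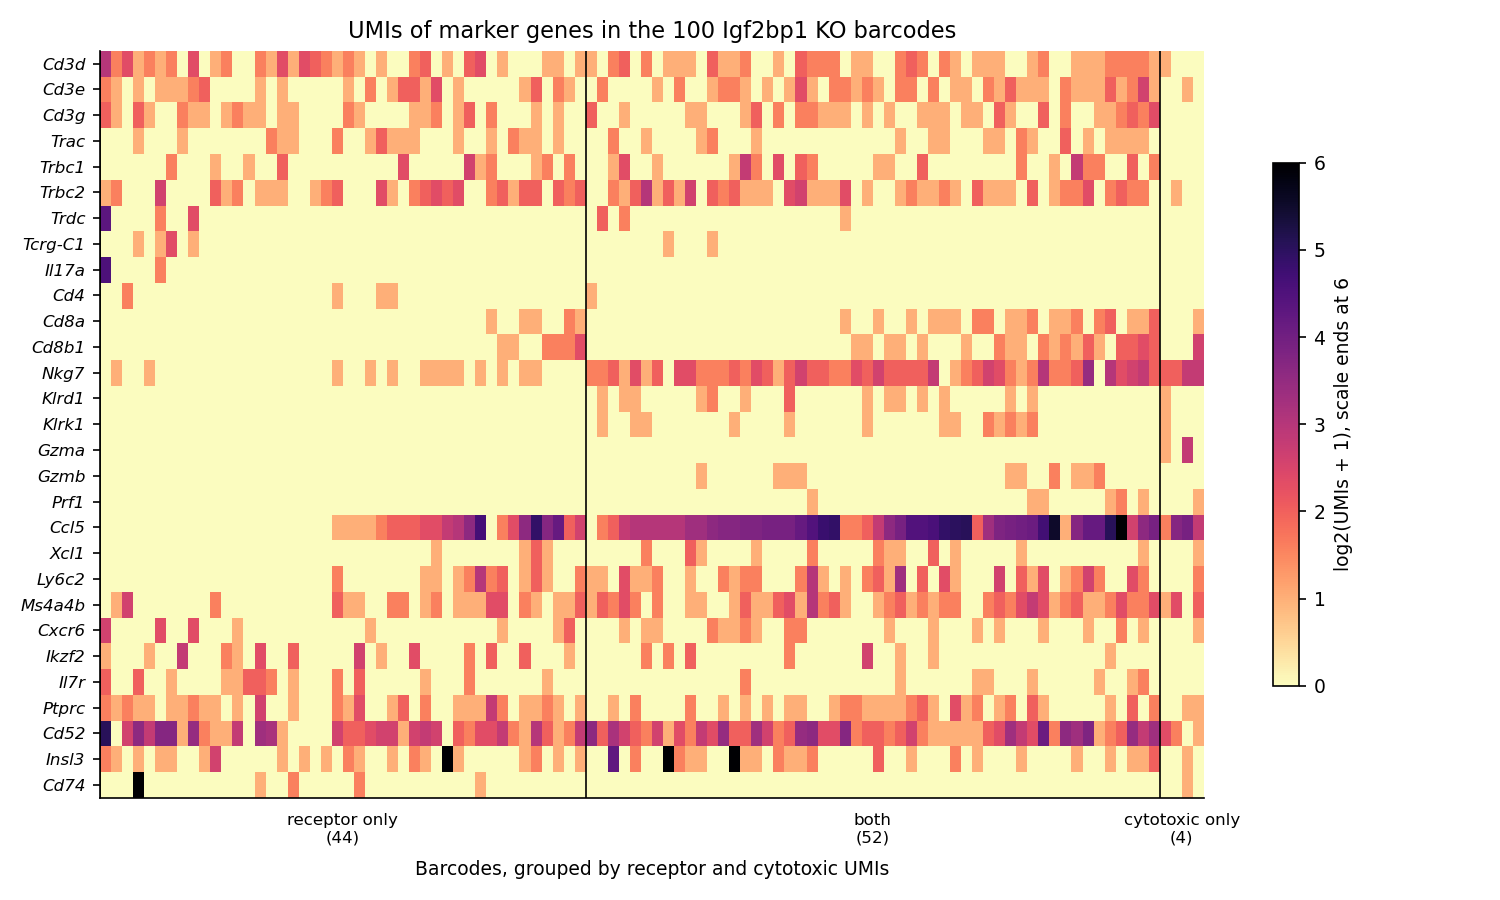
log2(UMIs + 1) per member (colour, scale ending at 6) for selecting genes and other T cell genes, each column 1 barcode, grouped by the division into receptor only, both and cytotoxic only. Ccl5 is dense in members with both kinds of gene and in the 4 cytotoxic only members, and present in 22 of the 44 receptor only members.

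Ccl5, a chemokine that memory and killer T cells store and release, was not used by the rule and marked most members. It had 974 UMIs in 77 of the 100 knockout members (2535 CPM, 2378 to 2699), with at most 81 in a barcode. In B barcodes it had 4 UMIs in 4 of 217 (6.38 CPM), in macrophages 30 in 5 of 225 (42.2 CPM) and in barcodes of like depth 86 in 19 of 714. Nkg7, a granule protein of cytotoxic cells, is a selecting gene and had 191 UMIs in 66 members. Both genes together were found in 63 members. Members with a CD8 UMI held Ccl5 at 5932 CPM (38 of 39 barcodes) and those without at 1282 CPM (39 of 61), at median depths of 2748 and 2758 UMIs. The deepest barcode had 3880 UMIs in the first group and 36701 in the second, so the second also held the barcodes with other RNA. Nkg7 stood at 1063 and 289 CPM in the same groups, and Ly6c2, a surface protein of memory CD8 T cells, at 647 and 150 CPM. Without the barcodes that held much other RNA, a choice made after seeing the data, the 39 members with CD8 were the same and 52 without it were left. In these 52 Ccl5 stood at 2199 CPM (35 barcodes), Nkg7 at 489 CPM and Ly6c2 at 275 CPM, so the gap was smaller. Of the 5 members with Cd4, 3 held Ccl5.

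Granule genes themselves were few. Gzmk had 13 UMIs in 9 members, Gzmb 12 in 10, Prf1, which encodes perforin, 8 in 7, and Gzmm 0. Ctsw, a cathepsin of killer cells, had 31 UMIs in 23 members and Srgn, a granule proteoglycan, 110 in 60. B and macrophage barcodes held Srgn as well, in 104 of 217 and 114 of 225, and no UMI of Ctsw, Gzmb, Gzmk or Prf1. Of the other cytokines, Ccl4 had 38 UMIs in 17 members (14 of them in 1 barcode), Xcl1 26 in 17, Ifng 7 in 6 and Tnf 5 in 4, while Il2 had 1 and Il4, Il21 and Csf2 had 0.

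Of the NK receptor list, 16 of 21 genes had a UMI in members, 115 UMIs in 39 members, and none reached 20 UMIs. Klrd1 had 18 UMIs in 15 members, Klrk1 17 in 14, Klra7 15 in 10 and Klrb1c, the NK1.1 antigen, 5 in 5. Klrd1 and Klrk1 are receptors that activated CD8 T cells carry too. Klrb1a, Klrb1b, Klri2 and Klra3 had 0. Tyrobp, an adaptor of NK receptors and of myeloid cells, stood at 46.8 CPM in members and 1158 CPM in macrophages. The Klra genes are near-identical copies whose UMIs may be split.

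In the 4 members with under 2 receptor UMIs (cytotoxic only), Nkg7 had 3 to 6 UMIs and Ccl5 2 to 14. A single UMI of Cd3d, Cd3e or Trbc2 lay in 3 of them, and the remaining one held 5 Cd8b1 and 1 Cd8a UMIs with none of the receptor genes. The barcode with 6 Gzma UMIs is among these 4, and it held no UMI of Klrd1 or Klrk1.

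Genes of naive and central memory T cells, a list of 14, summed to 170 UMIs in 65 of the 100 members (442 CPM). Barcodes of like depth stood at 299 CPM and B barcodes at 942 CPM. Of the 170 UMIs 37 were of Il7r, a selecting gene, so the rules in part fix these sums. The list of tissue residency and homing genes, 20 in the table, summed to 382 UMIs in 96 members (994 CPM), against 265 and 496 CPM. An interval above that of barcodes of like depth was found for 3 of the 14, with Il7r among them, and 13 of the 20. The difference between the lists was not tested. Ccr7, which guides naive cells to lymph nodes, had 1 UMI in the 100 members, Tcf7 7 and Lef1 8. In B barcodes Ccr7 stood at 54.2 CPM, against 2.60 in members. Cxcr6, a chemokine receptor of resident T cells, had 44 UMIs in 27 members and 0 in B and macrophage barcodes. Rgs1 had 40 in 28, Itga4, an integrin chain, 35 in 30, and Cd69, which holds cells in tissue, 22 in 17, but Cd69 stood higher in B barcodes (139 CPM) than in members (57.3 CPM). Itgae, the integrin chain of cells in epithelia, stood at 143 CPM in members and 162 CPM in barcodes of like depth, so it does not set them apart. Zfp683, a resident cell factor, had 0 UMIs.

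Icos and Nr4a2 led the checkpoint list with 41 UMIs in 26 members and 47 in 29. The inhibitory receptors were low: Pdcd1 had 11 UMIs in 8, Ctla4 10 in 6, Lag3 3, Havcr2 2 and Tigit 1. Ikzf2, a factor of regulatory and some innate-like T cells, had 54 UMIs in 22 members. Rag1 had 1 UMI and Rag2, Dntt and Ptcra had 0, so the genes of receptor rearrangement were all but absent. Mki67, a gene of dividing cells, had 10 UMIs in 4 members.

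Trdc, the constant segment of the delta chain of gamma delta T cells, was found in members of both libraries. In the knockout library 6 members held it (31 UMIs, 19 of them in 1 barcode), and none of the 6 held Trac. Of the beta constant segments, Trbc2 had 11 UMIs in 4 of the 6 and Trbc1 4 UMIs in 1. The barcode with 19 Trdc UMIs, 6213 UMIs in all, also held 22 of Il17a, 5 of Cd163l1, 2 of Sox13, 3 of Maf and 1 of Il23r. These genes are known from gamma delta cells that make interleukin 17. A second Trdc barcode held 2 Il17a UMIs, and no other member held any. In the wild type library 2 of the 4 leukocyte-positive members held Trdc, with 2 and 6 UMIs, and both held Trdv4, Tcrg-C1, Cd163l1 and 3 Cxcr6 UMIs each, with no Ccl5 or Il17a. Trac and Trbc1 had 0 UMIs in both, and Trbc2 had 7 UMIs in 1. The 6 knockout members with Trdc held Cxcr6 at 683 CPM against 82.5 CPM in the other 94, and Ccl5 at 488 against 2650 CPM. In the 85 others free of much other RNA, Cxcr6 stood at 125 CPM and Ccl5 at 4015 CPM. The shares with Trdc, 6 of 95 and 2 of 4 leukocyte-positive members, rest on very few barcodes. The other 2 leukocyte-positive wild type members held Ccl5 (34 and 23 UMIs), Nkg7 and a CD8 UMI. One of them had 2007 UMIs and the other 19000, with 18 spermatocyte gene UMIs.

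Members with markers of another cell type were few but weighty. The 6 Leydig genes summed to 1578 UMIs in 64 members (range 0 to 1016, median 1), and 3 barcodes held 1016, 344 and 89. Insl3, the Leydig hormone, had 1216 UMIs in members, 65.4% of them in 1 barcode, and was found in 60.8% of barcodes of like depth. The macrophage and monocyte list summed to 235 UMIs (0 to 28, median 1) with Adgre1 and Mrc1 at 0. Of these, 109 were of Ly6c2, named above for memory CD8 T cells. The 6 genes of the macrophage rule summed to 36 UMIs in 11 members, 25 of them in 1 barcode. A receptor only member held 73 of the 80 Cd74 UMIs. Mast cell genes were at 0 in 6 of 6, and of the B genes Cd79a and Ighd were at 0. Leaving out such barcodes (10000 UMIs or more, 20 or more Leydig UMIs or 6 or more macrophage UMIs) and those not leukocyte-positive leaves 91 knockout and 3 wild type members, a log2 ratio of 4.86 (3.27 to 7.17). What part these barcodes have in the levels was not tested beyond these values.

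To place the members among leukocytes of the same library, summed UMIs were compared with those of the 217 B barcodes, which have like depth. A gene was called when it differed at least 2-fold with a 95% interval that left out 1, among 6813 genes with 20 UMIs over both groups, selecting genes of either side left out. By this rule 281 genes (4.12%) were higher and 479 (7.03%) lower in members, 11.2% in all, and the median over all genes was 0.02 on the log2 scale. Both groups are barcodes of 1 library, and the interval covers counting error only.

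Against these B barcodes, T cell signalling and surface genes were higher in members and B cell genes lower. Of 12 signalling genes measured, 10 were higher and 1 lower (median log2 3.58), the lower one being Ptprcap. Of 19 pan-T and lymphoid surface genes 11 were higher and 0 lower, and of 7 cytokines 6 and 1. Ccl5 was higher by 8.63 on the log2 scale (7.27 to 10.51). Ms4a4b, a T cell surface protein, had 147 UMIs in members and 0 in B barcodes. That is 80.0-fold with the empty side set at the floor of 3 UMIs. Its exact interval starts lower, at 6.01 on the log2 scale. Folds given for genes with an empty side are all at this floor and are not lower bounds. Ikzf2 (29.4-fold), Cxcr6 (23.9-fold), Icos (22.3-fold), Ccl4 (20.7-fold) and Cd7 (19.6-fold) were likewise at 0 in B barcodes. S100a4 (log2 8.17, 5.68 to 13.49) and S100a6 (6.12, 5.33 to 7.03), calcium-binding proteins of memory T cells, were found in 63 and 87 of 100 members and in 1 and 10 of 217 B barcodes. Hcst, the adaptor of the killer receptor Klrk1, differed by 5.51, Ly6c2 by 7.48 and Gimap3, a GTPase of lymphocyte survival, by 6.79.

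On the other side, all 8 measured B lymphocyte genes and all 5 measured B precursor genes were lower in members, which the Cd79 limit in part fixes. Vpreb3, one of the B precursor genes, had 853 UMIs in B barcodes and 0 in members, 174-fold lower at the floor. Ighm, Igkc and Ebf1 differed by -7.53, -7.68 and -7.74 on the log2 scale. Cell cycle genes were also lower: 11 of 19 were called lower and 0 higher (median -1.25), with Top2a at 80.7 CPM in members and 244 CPM in B barcodes. Naive and central memory genes were lower in 4 of 10 and higher in 0. Ribosomal protein genes were called in neither direction in 24 of 24 (median -0.09), and the 8 spermatid genes likewise (median -0.17). Of 6 Leydig genes 4 were higher in members, which touches the barcodes with Leydig RNA named above. Of the 24 genes named by rank here, all kept call and direction when those barcodes were left out.

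**Figure D4:**
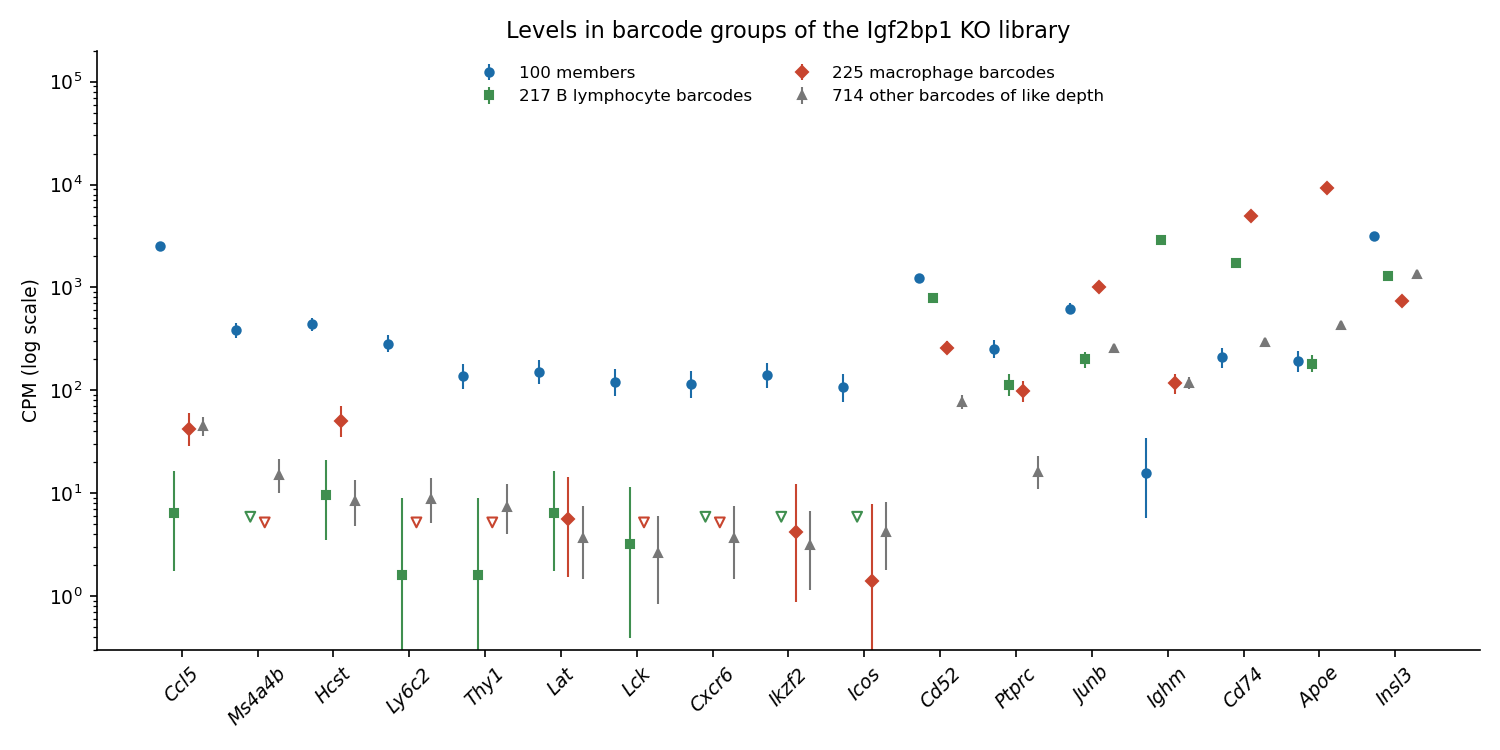
Level in CPM (log axis) of T cell and leukocyte genes, Junb, Ighm, Cd74, Apoe and Insl3 in the 100 members, 217 B barcodes, 225 macrophage barcodes and 714 other knockout barcodes of like depth, with 95% exact Poisson intervals (counting error only); open triangles give the upper limit where no UMI was counted. Ccl5 is at 2535 CPM in members and 42.2 CPM or less in B and macrophage barcodes, and Cxcr6 has no UMI in either.

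Against the 225 macrophage barcodes 292 of 7251 genes (4.03%) were higher and 693 (9.56%) lower in members, 13.6% in all (median 0.04). T cell genes again stood out: 11 of 13 signalling genes were higher and 0 lower, and 14 of 19 pan-T genes higher and 1 lower. Ms4a4b (90.7-fold), Ly6c2 (67.3-fold), Gimap3 (42.0-fold), Gimap4 (41.4-fold), Thy1 (32.7-fold), Ltb (30.9-fold) and Lck (28.4-fold) had no UMI in macrophages. These folds are at the floor and are not lower bounds. The exact interval of Ms4a4b starts lower, at 6.19 on the log2 scale. Ccl5 was higher by 5.91. Of the 14 residency and homing genes 7 were higher and 2 lower. Among genes lower in members were Ccl8, a chemokine (0 UMIs against 1003, 181-fold at the floor), Lyz2, lysozyme (log2 -7.31), Wfdc17 (-6.74) and Pf4 (-6.37). Immediate early genes, which tissue digestion can induce, were lower in 12 of 20 and higher in 2 (median -1.33): Fos stood at 237 CPM in members and 1650 CPM in macrophages. Against B barcodes the same list was higher in 6 of 20 and lower in 1. The ribosomal protein genes were called in 0 of 24 (median 0.50).

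The members were divided by 6 receptor genes and 9 cytotoxic genes at 2 UMIs each. In the knockout library 52 members had both (52%, exact interval 41.8 to 62.1), 44 the receptor genes only (34.1 to 54.3) and 4 the cytotoxic genes only (1.10 to 9.93), at median depths of 2694.5, 2805.5 and 2554.5 UMIs. With the limit at 1 UMI the shares were 68%, 31% and 1%. Ccl5, which was not used to divide them, stood at 4743 CPM in members with both (51 of 52 barcodes) and 739 CPM in receptor only members (22 of 44). Without the barcodes that held much other RNA, it stood at 5553 CPM in members with cytotoxic genes (52 of 53) and 1350 CPM in receptor only members (21 of 38).

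Across genes, the 56 members with 2 cytotoxic UMIs were set against the 44 receptor only members. Among 3438 genes 190 (5.53%) were higher and 283 (8.23%) lower, 13.8% in all, with a median of -0.17. The genes leading both sides were those of single loaded barcodes: Insl3 differed by 3.71 with 71.3% of its UMIs in 1 barcode, Lcn2 by 4.60 with 82.8%, and Cd74 by -6.06 with 92.4% of receptor only UMIs in 1. In the 91 members free of such load (53 and 38), 39 of 2405 genes (1.62%) were higher and 44 (1.83%) lower, 3.45% in all, with a median of 0.00. There Insl3 differed by 0.50 (-0.24 to 1.26) and Lcn2 by -0.12 (-0.86 to 0.63). Across so many 95% intervals some such calls come from counting error alone, so the genes named here are a description. In simulated counts of the 56 and 44 members, with no spread between barcodes, 2.92% of unchanged genes were called at a 1.5-fold limit. The calls above used a 2-fold limit, and those free of load other groups (53 and 38), so the shares cannot be set side by side.

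Within these 91 members, the 39 genes higher with the cytotoxic genes included several of T cells, while most of the 39 are not T cell genes. Ccl5 was higher by 2.04 (1.79 to 2.30; 52 of 53 barcodes against 21 of 38) and Cd8a by 1.89 (0.60 to 3.45). Runx3 was higher by 1.62 (0.29 to 3.20), Cd27, a costimulatory receptor, by 2.05 (0.65 to 3.78), Gimap4 by 2.00, Ly6c2 by 1.27 (0.62 to 1.97) and Ms4a4b by 1.07 (0.53 to 1.64). The germ cell genes Spata9, Spaca7 and Tex29 were among the 39 too, and they are not lymphocyte genes. These genes were chosen after their values were seen. On the receptor only side stood Nfkbia, an inhibitor of NF-kB (log2 -2.49, -3.65 to -1.47), and Gadd45b (-1.91, -3.19 to -0.77). Of the receptor only Gadd45b UMIs 46.2% lay in 1 barcode. Ikzf2 (-1.56, -2.55 to -0.65), Rora, a nuclear receptor of innate-like lymphocytes (-1.53, -2.85 to -0.33), and Icos (-1.03, -2.11 to -0.00) stood there too. So did Reep5, Tmed9 and Dcun1d5, which are not T cell genes. Trdc was lower by 2.44 in the cytotoxic members, although 3 barcodes held it on each side, because 1 receptor only barcode held 19 UMIs.

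Other genes of the members differed by values near 0 between these 2 groups. S100a6 differed by -0.03 (-0.28 to 0.23), Cd52, a lymphocyte surface glycoprotein, by 0.09 (-0.19 to 0.37), H2-K1 by -0.18 (-0.54 to 0.19), Cxcr6 by -0.18 (-1.11 to 0.76) and Rgs1 by 0.05 (-0.91 to 1.05). The first 3 intervals lie within 2-fold, while those of Cxcr6 and Rgs1 reach past 1.0 on the log2 scale on one side, so for these a 2-fold difference lies within the interval.

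**Figure D5:**
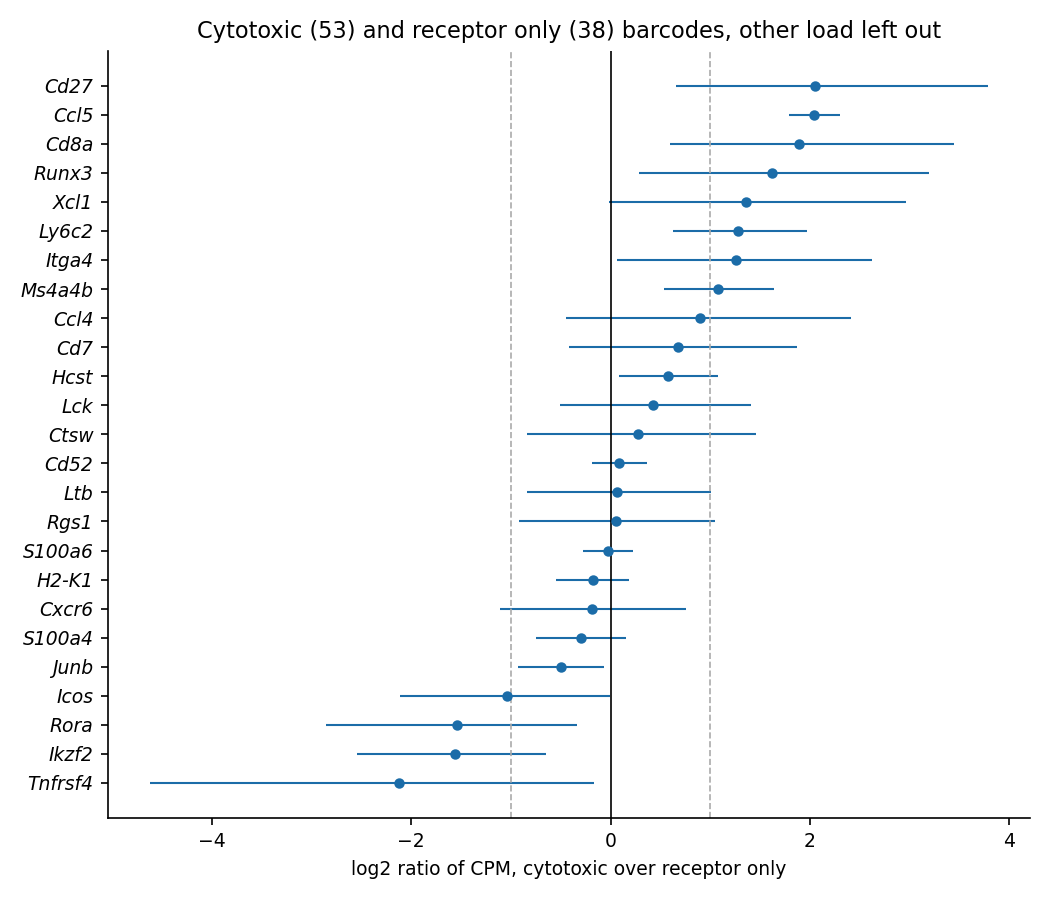
Log2 ratio of the level (CPM) in 53 cytotoxic over 38 receptor only members of the knockout library, other load left out, with 95% exact conditional binomial intervals (counting error only) and dashed lines at 2-fold, for 25 genes picked after their values were seen. Ccl5 lies at 2.04, Cd52, Rgs1 and S100a6 lie near 0, and Ikzf2 lies at -1.56.

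Igf2bp1 itself had 0 UMIs in the 100 knockout members, which allows up to 7.81 CPM, and 1 UMI in the 217 B barcodes. Igf2bp3 stood at 78.1 CPM in members and 87.6 CPM in barcodes of like depth. The deletion can therefore not be read from these cells.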

How the data were processed

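Whole-testis single-cell RNA was counted in 1 wild type and 1 Igf2bp1 KO library (10x Genomics, poly(A) RNA). The deposited tables hold whole-number UMI counts per gene and barcode, made with Cell Ranger 2.2.0 and STAR on mm10, per the submitters' processing notes; the file headers name software version 3.1.0. The sources used here do not say how barcodes were called as cells. Genes of the same symbol were summed. Kept barcodes held 943 to 176659 UMIs in the wild type and 1246 to 109134 in the knockout library. CPM is UMIs per 1000000 UMIs of the summed barcodes. Intervals are 95% exact Poisson, Clopper-Pearson or conditional binomial, and, like the floor of 3 counts, cover counting error only. Barcodes are not replicates, and with 1 library per genotype no p-value was computed. Doublets were not removed.

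B barcodes had at least 4 UMIs of Cd79a and Cd79b, and macrophage barcodes at least 6 of C1qa, C1qb, C1qc, Csf1r, Mrc1 and Adgre1, with at most 1 UMI of the other types' genes. Barcodes of like depth had the members' middle range of UMIs. Genes named per comparison were the 12 each way with the interval bound farthest from 0, and up to 6 per list by level. Members and all 43 lists (410 of 416 genes found) were chosen with earlier results of these data known. The comparisons were tested on simulated Poisson counts, with no spread between barcodes and a 1.5-fold limit. Of genes changed 2-fold 79 to 88% were recovered, and 2.92 to 2.96% of unchanged genes were called. Promoter sequences are from RefSeq. Analyses used Python 3.11.15, numpy 2.4.6, scipy 1.17.1, pandas 2.3.3 and matplotlib 3.10.9. Alternatives covered the selecting limits, depth, scaling, UMI minimum, fold limit, top barcodes and free RNA.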

Additional observations from a re-analysis of the deposited data

How the results depend on the processing

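No paired analysis was possible because each genotype has 1 library and the labels give no replicate numbers. The share of members (knockout, wild type, log2 ratio) was 0.746%, 0.253% and 1.56 with at least 3 selecting UMIs, 0.350%, 0.0235% and 3.90 with 6, 0.967%, 0.329% and 1.55 among barcodes of 2000 UMIs or more, and 0.158%, 0.0118% and 3.75 with every barcode thinned to 900 UMIs. It was 0.435% and 0.0529% with 5 selecting UMIs. The knockout share was 0.407% from receptor genes alone and 0.846% of the barcodes within the protamine limit. Without the protamine limit the shares were 1.49% and 2.11% and the ratio turned, to -0.50; with protamine UMIs below 50 they were 0.0395% and 0%, which gives no ratio. Chosen after seeing the data, leukocyte-positive members gave 0.0235% in the wild type and 4.51, members free of other load 0.0176% and 4.86, and leukocyte-positive members without a protamine limit 0.757% and 0.224%. Both kinds of gene were held by 68%, receptor genes only by 31% and cytotoxic genes only by 1% of members at 1 UMI; at 3 UMIs 33% held both and 11% cytotoxic genes only; with 6 selecting UMIs 64.5% held both and 32.3% receptor genes only.

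Against B barcodes the counts (higher, lower) were 112 and 217 with 50 UMIs, and 502, 165 and 1000 genes were higher with a 1.5-fold limit, without each gene's top barcode and with free RNA taken off. Against macrophages they were 96 and 345, and 483, 173 and 837. Between cytotoxic and receptor only members they were 72 and 131 with 50 UMIs, 106 and 71 without the top barcode, 80 and 48 with 6 selecting UMIs, 98 and 61 for leukocyte-positive members and 39 and 44 free of other load; 318 were higher with 10 UMIs, and 162, 505 and 750 lower with median-of-ratios scaling, the 1.5-fold limit and free RNA taken off. Il17a, H2-Aa and H2-Eb1 each turned to 0.25 without the top barcode. Free of other load Lcn2 was at -0.12, Ptgds -0.68, Cyp17a1 -0.21, Apoc1 -0.020 and Gstm2 -0.58. Apart from the top-barcode and load settings, whose construction removes the loaded barcodes, the cause was not tested. Of the other values of genes named by rank, 590 kept direction and call and 50 lost the call. Low depth limits what a missing UMI says, and 4 leukocyte-positive wild type barcodes allow no profile of that genotype.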
